A study of Mus musculus with 2 samples.

Results

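Chromatin loops at genes of cytokines, chemokines, their receptors and Toll-like receptors were examined in mouse cerebral cortex after experimental stroke or sham surgery. These were the autosomal protein-coding genes whose symbols begin with Il, Ccl, Cxcl, Ccr, Cxcr, Tnfsf or Tlr followed by a digit, and 151 of 20661 autosomal protein-coding genes met that rule. In mice of the MCAO group, a filament passed up the carotid artery blocked the middle cerebral artery for 1 h, and ipsilateral cortex from the territory of that artery was frozen after 6 h of reperfusion. The sham group had the operation without the filament being advanced and the same 6 h of recovery. The labels used here do not name the strain, sex or age of the mice. The labels speak of 3 cortices as biological replicates, but each group came as 1 loop list, and whether the cortices were pooled is not stated. The differences below therefore have no replicate check, and no p-value was computed.

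Hi-C joins and sequences DNA segments that lie close together in the nucleus. A loop in these lists is a pair of DNA segments, its anchors, joined by at least 10 paired-end tags (PETs), each of which is a read pair that connects both anchors. The MCAO library held 40550536 PETs and 15592 loops, and the sham library held 34974213 PETs and 14779 loops, a depth ratio of 1.16. All intervals given (95%) reflect counting error alone and leave out variation between animals and libraries. Nothing shows that each PET came from a separate molecule, so intervals of PET ratios may be too narrow. A loop was assigned to a gene when an anchor lay within 2.5 kb of either end of the gene. Anchors are wide, with a median of 20.7 kb in MCAO and 24.8 kb in sham, so a single anchor can reach several neighbouring genes. Loops do not measure expression, so the labelled tissue could not be checked by marker levels. The 6 neuron marker genes examined all had a loop (12 gene-loop pairs in MCAO and 12 in sham), while 5 of 8 microglia markers and 5 of 7 neutrophil and monocyte markers had none in either list. Of 5 astrocyte markers 4 had a loop, with 10 pairs in MCAO and 4 in sham, of which the glutamate transporter gene Slc1a3 had 7 in MCAO and 2 in sham. Of 4 endothelial markers 2 had a loop, with 2 pairs in MCAO and 3 in sham. Over all autosomal protein-coding genes, 36.4% had a loop in neither list. Median gene length was 70.9 kb for neuron, 48.4 kb for astrocyte and 52.0 kb for endothelial markers. It was 20.8 kb for microglia markers and 3.87 kb for neutrophil and monocyte markers. The part of gene length in these counts was not tested.

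Interleukins and chemokines are small secreted proteins. Interleukins act through multi-chain receptors on target cells, and chemokines draw leukocytes along gradients through G protein-coupled receptors. Toll-like receptors detect microbial products and molecules released by damaged cells, and like the interleukin-1 receptors they signal to the transcription factor NF-kB, which acts at promoters of many cytokine and chemokine genes. In the injured brain these genes are known mainly from microglia, astrocytes, endothelium and infiltrating leukocytes. In bulk cortex, fewer cells of a type and fewer contacts per cell cannot be told apart.

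Cytokine and receptor genes lacked a loop at their ends more often than autosomal genes in general. Of the 151 genes, 78 had a loop in neither list, 51.7% (43.4 to 59.9), against 36.4% of all autosomal genes. With anchors over any part of the gene counted, the share was 48.3%, against 33.5% of all genes. An MCAO loop was present at 56 of the 151 genes, 37.1% against 49.6% of all genes, and a sham loop at 42, 27.8% against 44.5%. A loop stood in MCAO only at 31 genes, 20.5% against 19.2% of all genes, and in sham only at 17, 11.3% against 14%. Both lists had a loop at 25 genes, 16.6% against 30.4% of all genes. The share with a loop in a single list was thus near that of all genes, and the gap lay in genes with loops in both. No gene of the set had more than 6 loops in a list, whereas the maximum over all autosomal genes was 14.

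**Figure D1:**
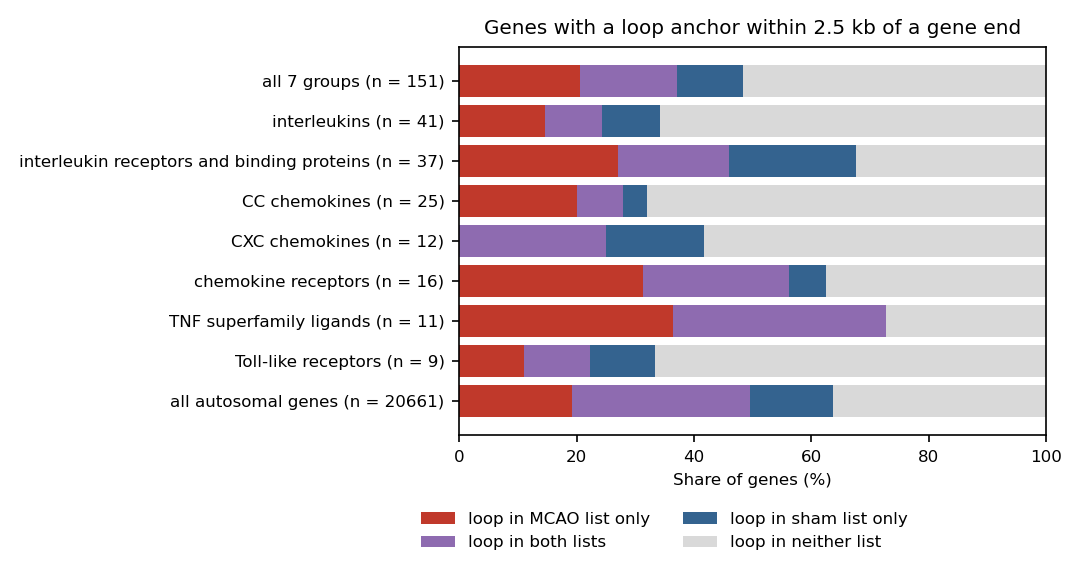
Share of genes (%, horizontal axis) with a loop in the MCAO list only, in both lists, in the sham list only or in neither, for the 151 cytokine, chemokine and receptor genes, their 7 groups and all 20661 autosomal protein-coding genes (1 library per group). The grey part, genes without a loop, is 51.7% for the whole set and ranges from 27.3% for TNF superfamily ligands to 68.0% for CC chemokines.

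The share of genes without a loop is given by group, with no test between groups. Among ligands, 27 of 41 interleukin genes (65.9%, 49.4 to 79.9), 17 of 25 CC chemokine genes (68.0%, 46.5 to 85.1) and 7 of 12 CXC chemokine genes (58.3%, 27.7 to 84.8) had none. Among receptors, 12 of 37 interleukin receptor and binding protein genes (32.4%, 18.0 to 49.8) and 6 of 16 chemokine receptor genes (37.5%, 15.2 to 64.6) had none. The TNF superfamily ligands lacked a loop at 3 of 11 genes (27.3%, 6.02 to 61.0), and Toll-like receptors at 6 of 9 (66.7%, 29.9 to 92.5). The intervals of the groups overlapped. Median gene length was 6.60 kb for interleukins, 3.15 kb for CC chemokines and 4.86 kb for CXC chemokines, against 28.8 kb for interleukin receptors, 7.24 kb for chemokine receptors, 20.5 kb for TNF superfamily ligands and 8.92 kb for Toll-like receptors. The interleukin group by symbol also holds Il4i1 and Il4i1b, genes of an amino acid oxidase rather than a cytokine, of which Il4i1b had 1 sham loop.

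Several genes known from stroke inflammation were among those without a loop. The pyrogenic cytokine gene Il1b, the acute phase cytokine gene Il6, the interferon-induced chemokine gene Cxcl10 and the lipoprotein receptor gene Tlr2 had 0 loops in MCAO and 0 in sham, as did Tnf, which lies outside the symbol rule. The chemokine receptor gene Cxcr4, the alarmin gene Il33 and the anti-inflammatory cytokine gene Il10 also had none. Tlr4, the endotoxin receptor gene, had 0 loops in MCAO and 1 in sham, with 11 PETs over 385 kb. A gene without a listed loop is not shown to lack contacts, since both lists begin at 10 PETs.

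Genes without a loop were mostly not far from one. Over these 78 genes the nearest anchor of either list lay a median of 22.7 kb from the nearer gene end (quartiles 12.5 and 43.5 kb), against 26.9 kb for the 7511 loopless autosomal genes. Anchors came within 10 kb of 16 of the 78 genes, such as Il4 (2.76 kb) and Tlr3 (5.05 kb), and stayed over 100 kb away at 8. Il6 had its nearest anchor 121 kb away in MCAO and 114 kb away in sham, and Cxcr4 189 kb away at the nearest. A loop passed over 61 of the 78 genes, with its anchor midpoints on either side of the gene, 78.2% against 67.7% of all loopless genes. By list, MCAO loops passed over 49 of the 78 genes and sham loops over 51, against 4117 and 3810 of the 7511 loopless autosomal genes. Over Ccl8, Ccl11 and Ccl12, neighbouring chemokine genes of 1 cluster, 5 MCAO loops and 1 sham loop passed.

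Gene length moved with the share of genes without a loop. The cytokine and receptor genes had a median length of 9.03 kb, against 17.5 kb over all autosomal genes. Of the 104 genes in the set shorter than that all-gene median, 64 had no loop, 61.5% (51.5 to 70.9), against 47.5% of all short genes. Of the 47 longer genes, 14 had none, 29.8% (17.3 to 44.9), against 25.2% of all long genes. Gene density was close to that of all genes, with a median of 15 protein-coding genes per Mb around the set and 16 around all autosomal genes. In the most gene-poor surroundings, with 1 to 9 genes per Mb, 17 of 37 genes of the set had no loop (45.9%, 29.5 to 63.1), against 23.1% of all genes there. In the most gene-rich, with at least 29 genes per Mb, the order was the other way, with 5 of 19 genes of the set without a loop (26.3%, 9.15 to 51.2), against 43.9% of all genes there. The part of length or density in the shares was not tested.

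Genes in clusters were set beside those that stood alone. With gaps of at most 200 kb, 89 genes formed 30 clusters, and 51 of the 89 had no loop (57.3%, 46.4 to 67.7). Of the 62 genes outside clusters, 27 had none (43.5%, 31.0 to 56.7), so the intervals overlapped. The median length was 6.75 kb for clustered genes and 14.9 kb for the others, and its part in these shares was not tested. The clustered genes had 44 gene-loop pairs in MCAO and 33 in sham, and the others 47 in MCAO and 28 in sham. No loop reached the T helper cell cytokine genes Il4, Il13 and Il5 on chromosome 11, the Il17a and Il17f pair, the Tlr1 and Tlr6 pair or the interferon-induced Cxcl9 and Cxcl10 pair in either list. Ccl21a, Ccl21b, Ccl21c, Ccl21d, Ccl27a, Ccl27b, Il11ra1 and Il11ra2, which have near-identical copies of each other on chromosome 4, had none as well. The labels do not say how reads matching several copies were handled. Without these 8 genes, the share of the set with no loop was 49.0%.

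Loop numbers at these genes after stroke were set against those after sham surgery. The 151 genes had 91 gene-loop pairs in MCAO (73.3 to 112) and 61 in sham (46.7 to 78.4), a ratio of 1.49 (1.07 to 2.10), against 1.22 over all autosomal genes. Since neighbouring genes share loops, the distinct loops were 82 in MCAO and 56 in sham, a ratio of 1.46 (1.03 to 2.10). The intervals of gene-loop pairs, here and below, treat each pair as a separate count and do not allow for shared loops. More loops were listed in MCAO at 39 genes, 25.8% of the set, against 29.7% of all genes. Fewer were listed in MCAO at 21 genes, 13.9% of the set, against 21.3% of all genes. These values moved with the PET minimum. With the MCAO minimum raised to 12 PETs to allow for the deeper library, there were 63 pairs in MCAO and 61 in sham, a ratio of 1.03 (0.715 to 1.49), and the ratio over all genes was then 0.831. More loops were then listed in MCAO at 29 genes of the set and fewer at 27, while 19.1% of all genes had more and 27.4% fewer. Without Il17b, the gene with the most loops, the ratio was 1.39 (0.991 to 1.97), an interval that held 1.

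The shorter genes of the set held most of the additional MCAO pairs. Below the all-gene median length they had 57 pairs in MCAO and 25 in sham, a ratio of 2.28 (1.40 to 3.81), against 1.27 for all short genes. The longer genes had 34 pairs in MCAO and 36 in sham, a ratio of 0.944 (0.573 to 1.55), against 1.19 for all long genes, and the intervals of the short and long genes overlapped. The split by length was chosen after the data were seen, and the short genes include Il17b, with 6 loops in MCAO and 0 in sham. By group, CC chemokines had 11 pairs in MCAO and 4 in sham, chemokine receptors 12 in MCAO and 6 in sham, TNF superfamily ligands 13 in MCAO and 7 in sham, and interleukins 19 in MCAO and 11 in sham. Interleukin receptors had 27 pairs in MCAO and 24 in sham, CXC chemokines 7 in each list, and Toll-like receptors 2 in each. The interval of the ratio held 1 in each of the 7 groups, from 0.815 to 11.8 in CC chemokines to 0.625 to 2.04 in interleukin receptors.

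A difference of at least 2 more loops in MCAO was present at 11 genes of the set, 7.28%, against 10.2% of all genes. A difference of at least 2 fewer was present at 5 genes, 3.31%, against 5.45% of all genes. At least 3 more loops in MCAO were listed at Il17b, Cxcl12, Il20rb and Tnfsf12, 4 genes or 2.65% of the set, against 3.18% of all genes. At least 3 fewer were listed at Il18, Il7r and Tnfsf11, 3 genes or 1.99% of the set, against 1.39% of all genes. The shares of the set were thus below or near those of all genes.

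**Figure D2:**
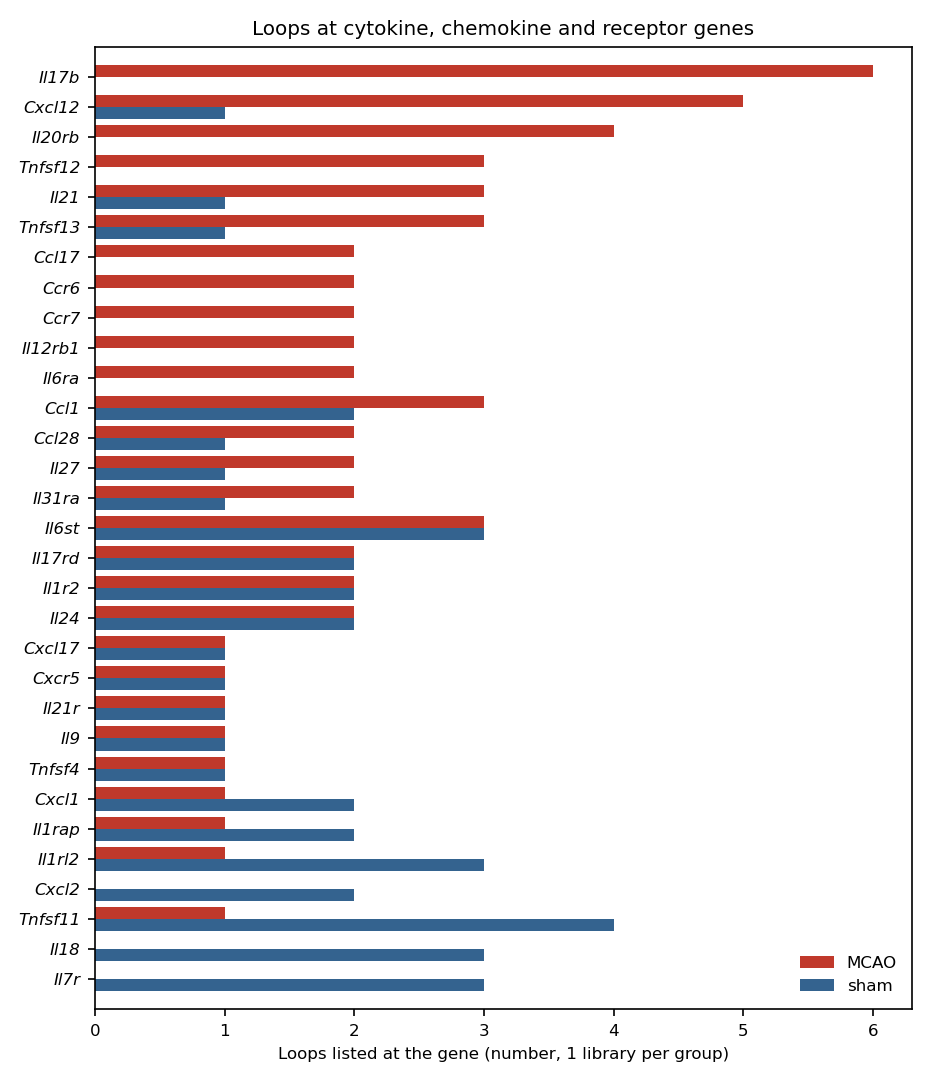
Number of loops listed (horizontal axis) in the MCAO library and in the sham library at named cytokine, chemokine and receptor genes with at least 2 loops in all, sorted by the difference (1 library per group, so no error bars). Il17b has 6 MCAO loops and 0 sham loops at the top, Il6st has 3 in each list, and Il7r and Il18 have 0 MCAO loops and 3 sham loops at the bottom.

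Among CXC chemokines, loops were listed at Cxcl12, Cxcl1, Cxcl2, Cxcl16 and Cxcl17 only. Cxcl12 (chromosome 6, 117168535 to 117181368, mm10) encodes a chemokine that guides neural and blood precursor cells, and it had 5 loops in MCAO and 1 in sham. Its MCAO loops carried 65, 21, 14, 10 and 10 PETs and its sham loop 39. All of them had an anchor at the transcription start. The 21-PET MCAO loop, 654 kb long, and the 39-PET sham loop, 624 kb long, were partners, which means that both anchor midpoints lay within 1 anchor width of each other. The 65-PET MCAO loop, 479 kb long, had a sham partner of 10 PETs whose anchor did not come within 2.5 kb of Cxcl12. The mean anchor width of that pair was 86.9 kb in MCAO and 23.6 kb in sham. Divided by the total of the library, its PETs were 5.61 times as many in MCAO, and 1.52 times per kb of anchor. The remaining 3 MCAO loops, of 10 to 14 PETs, had no partner in sham. With at least 15 PETs per loop Cxcl12 had 2 loops in MCAO and 1 in sham. The interval of the difference of 4 loops, from -1.68 to 10.7, held 0.

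The neutrophil-attracting chemokine genes Cxcl1 and Cxcl2 are neighbours on chromosome 5 with Cxcl3, Cxcl5 and Cxcl15. Both had fewer loops listed in MCAO. Cxcl1 had 1 loop of 10 PETs in MCAO, against 2 loops of 26 and 22 PETs in sham. Cxcl2 had 0 loops in MCAO, against 2 loops of 26 and 24 PETs in sham. The 26-PET sham loop was common to both genes, so the cluster had 1 distinct loop in MCAO and 3 in sham. Its far anchor, 384 kb away, lay at Alb, Afp and Afm, genes of albumin and related carrier proteins, and had no MCAO partner. The 479 kb MCAO loop at Cxcl1 was the partner of the 22-PET sham loop of 492 kb. Cxcl3, Cxcl5 and Cxcl15 had none in either list. Cxcl16 had 0 loops in MCAO and 1 in sham (18 PETs).

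Promoters of 3 genes of this cluster hold letters that match a binding form of NF-kB, and they are shown so that their loops can be set beside that shared sequence. All sequences are the 250 bases before the transcription start from RefSeq on GRCm38.p6, the assembly of mm10, read 5′ to 3′ on the gene's strand. Of the 151 genes, 115 had an entry in that table. Capitals mark matches, on either strand, to 2 NF-kB forms and an interferon response form. The NF-kB forms were GGGA, any 2 bases and TTCC, and GGG, any 2 bases and TTTCC, which can overlap each other. The interferon response form was GAAA, any 2 bases and GAAA. Cxcl1 and Cxcl2 had loops, Cxcl3 had none, and all 3 hold the run GGGAATTTCC within 100 bases of the start.
Cxcl1 (chr5:90890995-90891244, plus strand): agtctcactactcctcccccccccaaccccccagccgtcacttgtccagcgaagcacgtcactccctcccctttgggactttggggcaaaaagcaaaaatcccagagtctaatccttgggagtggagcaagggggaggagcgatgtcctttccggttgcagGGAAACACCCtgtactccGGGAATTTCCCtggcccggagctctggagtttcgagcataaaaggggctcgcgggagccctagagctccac
Cxcl2 (chr5:90903649-90903898, plus strand): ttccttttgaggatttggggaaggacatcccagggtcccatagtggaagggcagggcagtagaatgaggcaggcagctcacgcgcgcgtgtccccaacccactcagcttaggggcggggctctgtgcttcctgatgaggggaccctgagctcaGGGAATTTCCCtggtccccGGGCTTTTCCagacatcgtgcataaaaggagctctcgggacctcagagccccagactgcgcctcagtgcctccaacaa
Cxcl3 (chr5:90785851-90786100, plus strand): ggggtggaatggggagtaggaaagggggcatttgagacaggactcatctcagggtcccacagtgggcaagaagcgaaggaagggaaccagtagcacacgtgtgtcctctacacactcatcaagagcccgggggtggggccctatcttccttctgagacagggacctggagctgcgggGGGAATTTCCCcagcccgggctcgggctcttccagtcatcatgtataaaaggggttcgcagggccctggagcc

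Il6 and Cxcl10 had matches and no loop, Ccl1 a match and loops in both lists, and Cxcl12, the CXC chemokine gene with the most loops, no match. In Il6 the match GGGATTTTCC begins 44 bases before the start, and in Cxcl10 GGGAAATTCC begins 159 bases before it.
Il6 (chr5:30012864-30013113, plus strand): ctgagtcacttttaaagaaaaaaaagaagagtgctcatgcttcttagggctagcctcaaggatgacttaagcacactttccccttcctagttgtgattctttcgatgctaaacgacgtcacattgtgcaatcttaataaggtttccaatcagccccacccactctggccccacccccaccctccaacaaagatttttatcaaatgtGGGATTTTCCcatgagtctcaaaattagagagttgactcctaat
Cxcl10 (chr5:92348890-92349139, minus strand): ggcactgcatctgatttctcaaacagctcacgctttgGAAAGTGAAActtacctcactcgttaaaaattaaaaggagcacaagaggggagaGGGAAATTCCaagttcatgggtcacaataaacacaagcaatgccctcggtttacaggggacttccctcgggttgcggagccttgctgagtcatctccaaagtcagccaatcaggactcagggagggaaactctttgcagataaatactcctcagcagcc
Ccl1 (chr11:82179813-82180062, minus strand): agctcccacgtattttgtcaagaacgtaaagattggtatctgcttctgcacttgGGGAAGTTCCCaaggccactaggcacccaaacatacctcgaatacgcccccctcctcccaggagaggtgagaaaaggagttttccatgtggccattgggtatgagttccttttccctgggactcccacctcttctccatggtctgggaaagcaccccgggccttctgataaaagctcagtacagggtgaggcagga
Cxcl12 (chr6:117168285-117168534, plus strand): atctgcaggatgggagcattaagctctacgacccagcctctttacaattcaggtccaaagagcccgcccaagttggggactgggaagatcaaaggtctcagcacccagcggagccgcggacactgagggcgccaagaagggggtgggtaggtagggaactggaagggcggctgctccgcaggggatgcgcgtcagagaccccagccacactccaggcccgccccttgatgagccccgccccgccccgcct

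Either NF-kB form was found in 14 of the 115 promoters of the set, 12.2%, against 2.22% of 16456 autosomal promoters of the same length. Of the 50 genes with both a promoter entry and a loop, 5 held a form (Ccl1, Cxcl1, Cxcl2, Il9 and Il17rc). The interferon response form was present in 6 promoters of the set (5.22%, against 3.04% of all) and the core form of the insulator protein CTCF (CCA, any 2 bases, AG, any 2 bases, GGC) in 3 (2.61%, against 2.05%), namely Cxcr2, Cxcl15 and Tlr5. A match describes these letters and shows no binding.

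Where the start is known, loops reached it in 38 of 61 gene-loop pairs in MCAO (62.3%) and in 27 of 47 in sham (57.4%). The remaining pairs had an anchor only at the other end of the gene. At Il20rb, for example, 0 of the 4 MCAO loops came within 2.5 kb of the start, while at Ccl1 all 3 MCAO and all 2 sham loops did.

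Among CC chemokines, the cluster on chromosome 11 with the monocyte chemoattractant gene Ccl2 had 3 distinct loops in MCAO and 2 in sham. An MCAO loop of 19 PETs and 136 kb joined an anchor over Ccl2 and Ccl7 (82035856 to 82049384) to an anchor over Ccl1 (82166163 to 82190756), and it had no partner in sham. It was 1 of 2 MCAO loops that joined genes of the set to each other. Ccl1, which attracts monocytes and T cells, had MCAO loops of 25, 19 and 18 PETs, against sham loops of 40 and 14 PETs. The 25-PET MCAO loop (183 kb) and the 14-PET sham loop (184 kb) were partners with a ratio of depth-scaled PETs of 1.54 (0.770 to 3.21). Depth-scaled PETs are those of a loop divided by the total of its library. The 40-PET sham loop also had a partner in MCAO, of 60 PETs, whose anchor did not reach Ccl1. The next cluster, with Ccl3, Ccl4, Ccl5, Ccl6 and Ccl9, had 1 MCAO loop, at Ccl5 (16 PETs), and 1 sham loop, at Ccl4 (10 PETs). Ccl17, a ligand of Ccr4, had 2 loops in MCAO (15 and 13 PETs) and 0 in sham, but with a window of 10 kb it had 2 in each list.

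Chemokine receptor loops were listed at 10 of 16 genes, more in MCAO at 5, fewer at 1 and equal at 4. The shares with more and fewer were 31.25% and 6.25%, against 29.7% and 21.3% of all autosomal genes. Ccr7, the lymph node homing receptor gene, had 2 loops in MCAO, with 43 and 12 PETs, and 0 in sham. The far anchor of its 43-PET loop, 161 kb away, lay at Rara, Gjd3 and Top2a, and that PET number was at percentile 97.0 of the MCAO list. Ccr6 had 2 loops in MCAO (17 and 12 PETs) and 0 in sham, with the nearest sham anchor 105 kb from the gene. Ccr2, the receptor gene for Ccl2, had 1 loop of 12 PETs in MCAO and 0 in sham. The nearest sham anchor lay 3.955 kb from Ccr2, just outside the 2.5 kb window. Ccr4 had 1 loop of 13 PETs in MCAO and 0 in sham.

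Among interleukin genes Il17b, a member of the interleukin-17 family, had the most loops in a list, 6 in MCAO and 0 in sham (chromosome 18, 61687935 to 61692538). They carried 21, 21, 20, 14, 11 and 10 PETs and spanned 45.6 to 504 kb, all to the same side of the gene. Their far anchors reached the casein kinase gene Csnk1a1 (147 kb), Pde6a with the transcriptional coactivator gene Ppargc1b (412 kb), and Hmgxb3, Slc26a2 and Pde6a (504 kb). None had a partner in sham, whose nearest anchor lay 20.0 kb from the gene. The interval of the difference of 6 loops was 0.705 to 13.1, the only one that did not hold 0 among the 6 genes shown in the arc maps, which were picked for their differences. With the MCAO minimum at 12 PETs Il17b had 4 loops in MCAO and 0 in sham, and with at least 15 PETs it had 3 in MCAO and 0 in sham. Il17b was the only member of its family with more than 1 loop, as Il17d had 1 in MCAO and 0 in sham, and Il17a, Il17c, Il17f and Il25 had none.

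Il18, the gene of an inflammasome-activated cytokine, had 0 loops in MCAO and 3 in sham, with 12, 11 and 11 PETs. These sham loops spanned 324, 1071 and 983 kb, and the longest ended at the neural adhesion gene Ncam1. None had a partner in MCAO, and none was left with at least 15 PETs. Il21, a T cell cytokine gene, had loops of 23, 11 and 10 PETs in MCAO and 1 of 10 PETs in sham. With the MCAO minimum at 12 PETs, Il21 had 1 loop in each list. Its 11-PET MCAO loop reached Fgf2 and Nudt6. Il1a had 1 loop in MCAO (17 PETs, 106 kb) and 0 in sham, beside Il1b without any.

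**Figure D3:**
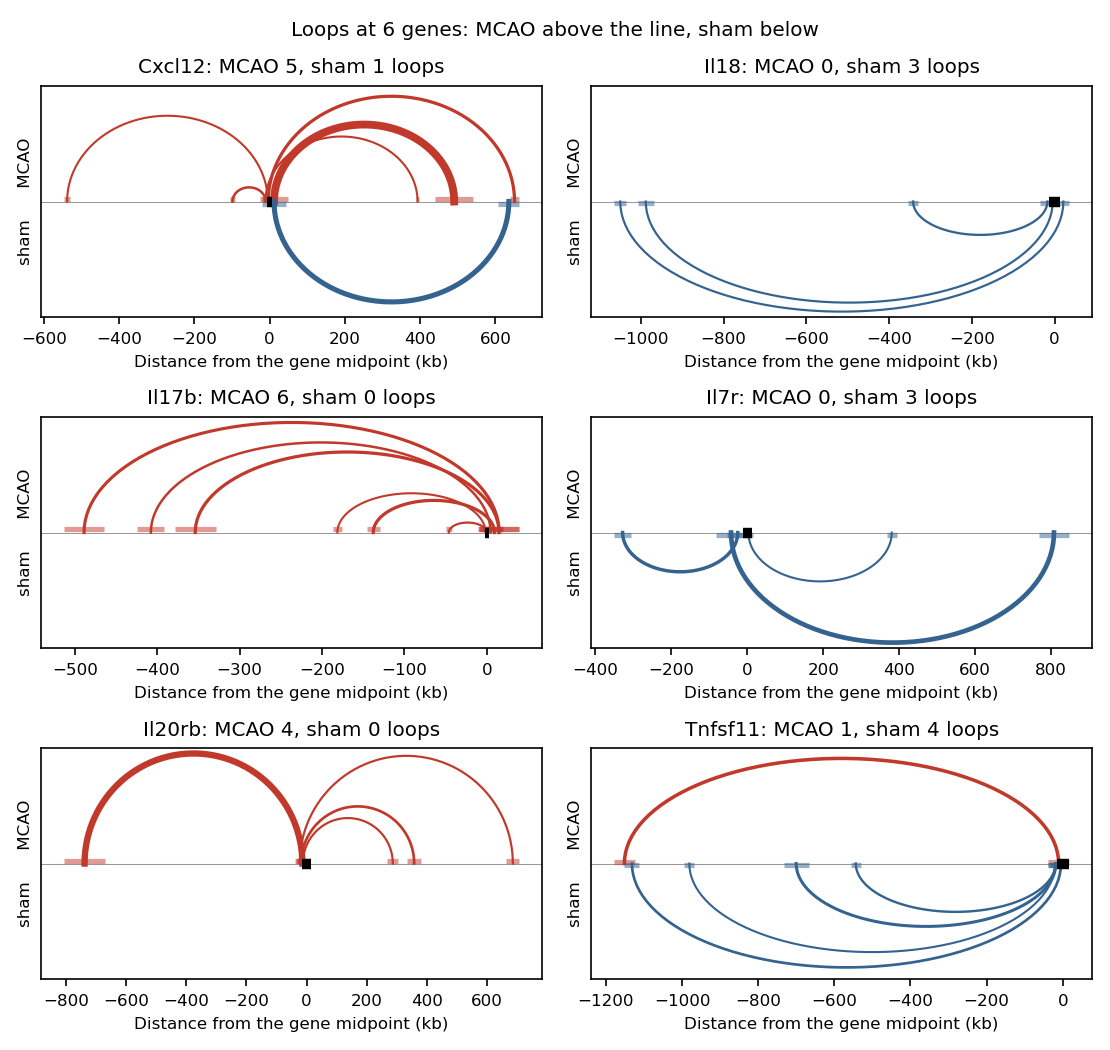
Loops at 6 genes, drawn as arcs between anchor midpoints against the distance from the gene midpoint (kb), with MCAO loops above and sham loops below each line. Black bars are the genes, pale bars the anchors, and wider arcs carry more PETs. The MCAO lists hold 5, 6 and 4 loops at Cxcl12, Il17b and Il20rb and 0, 0 and 1 at Il18, Il7r and Tnfsf11, whereas the sham lists hold 1, 0 and 0 at the genes on the left and 3, 3 and 4 at those on the right.

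Interleukin receptor genes had 27 pairs in MCAO and 24 in sham, with more loops in MCAO at 11 genes, fewer at 10 and equal at 4. The shares with more and fewer were 29.7% and 27.0%, against 29.7% and 21.3% of all autosomal genes. Il20rb, which encodes a subunit of the receptors for several interleukins of the interleukin-10 family, had 4 loops in MCAO with 51, 16, 11 and 11 PETs and 0 in sham. The 51-PET loop, 725 kb long, had a sham partner of 75 PETs and 537 kb whose anchor stopped 3.47 kb short of the gene. With a window of 10 kb Il20rb therefore had 4 loops in MCAO and 1 in sham. Il6ra, the interleukin-6 receptor gene, had MCAO loops of 29 and 16 PETs and 0 in sham. The far anchor of the 29-PET loop lay at the ephrin genes Efna1, Efna3 and Efna4 and the metalloprotease gene Adam15.

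Il6st encodes gp130, the signalling chain shared by receptors of interleukin-6 and related cytokines, and it had 3 loops in each list. Its MCAO loops carried 19, 10 and 10 PETs and its sham loops 49, 30 and 21. The pair of 144 kb in MCAO and 148 kb in sham was present in both lists, with 19 PETs in MCAO and 30 in sham, a ratio of depth-scaled PETs of 0.546 (0.291 to 1.00). With the MCAO minimum at 12 PETs, Il6st had 1 loop in MCAO and 3 in sham. Its neighbour Il31ra shared the 49-PET sham loop and the 1032 kb MCAO loop with it. The 49-PET sham loop had an MCAO partner of 16 PETs and 754 kb whose anchor reached neither gene. The mean anchor width of that pair was 40.8 kb in MCAO and 87.0 kb in sham. Per kb of anchor the depth-scaled ratio was 0.601, against 0.282 without regard to width.

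Il7r, the receptor gene of the lymphocyte survival factor interleukin-7, had 0 loops in MCAO and 3 in sham, with 35, 23 and 10 PETs. The 35-PET sham loop, 850 kb long, reached the prolactin receptor gene Prlr and Agxt2. It had an MCAO partner of 10 PETs whose anchor did not reach Il7r, as the nearest MCAO anchor lay 17.6 kb from the gene. Il5ra had 0 loops in MCAO and 1 in sham, and that loop of 80 PETs and 1237 kb was the strongest at any gene of the set. Its MCAO partner had 12 PETs, and the mean anchor width of the pair was 35.7 kb in MCAO and 108 kb in sham. Per kb of anchor the depth-scaled ratio was 0.390, against 0.129 without regard to width.

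The interleukin-1 receptor cluster on chromosome 1 holds Il1r2, the decoy receptor gene, Il1r1, Il1rl2, Il1rl1, which encodes the interleukin-33 receptor, Il18r1 and Il18rap. It had 2 distinct loops in MCAO and 6 in sham. An MCAO loop of 46 PETs and 251 kb joined Il1r2 to Il1rl2. Its sham partner, 248 kb long, had 10 PETs and reached Il1rl2, while its other anchor lay within Il1r2 but over 2.5 kb from either end. Depth-scaled PETs were 3.97 times as many in MCAO (1.97 to 8.82), while the mean anchor width was 31.7 kb in MCAO and 11.8 kb in sham. Per kb of anchor the ratio was 1.48. Il1r1, the signalling receptor gene, had 0 loops in MCAO and 1 in sham (10 PETs), and Il1rap, its co-receptor gene on chromosome 16, had 1 in MCAO and 2 in sham.

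TNF superfamily ligands had loops at 8 of 11 genes, with more in MCAO at 6, fewer at 1 and equal at 1. The shares with more and fewer were 54.5% and 9.09%, against 29.7% and 21.3% of all autosomal genes. Tnfsf12 and Tnfsf13, which encode TWEAK and APRIL and lie side by side on chromosome 11, shared 3 MCAO loops of 26, 16 and 10 PETs. In sham, Tnfsf12 had 0 loops and Tnfsf13 had 1 of 10 PETs. The 26-PET loop reached the synaptic vesicle gene Vamp2 and the clock gene Per1, 552 kb away, and the 10-PET loop reached the postsynaptic adhesion gene Nlgn2. With a window of 10 kb, Tnfsf12 had 3 loops in MCAO and 1 in sham. Tnfsf11, which encodes RANKL, had 1 loop in MCAO (24 PETs, 1141 kb) and 4 in sham (19, 16, 13 and 10 PETs). The MCAO loop and the 16-PET sham loop of 1127 kb were partners, with a ratio of depth-scaled PETs of 1.29 (0.659 to 2.61). The mean anchor width of that pair was 54.8 kb in MCAO and 36.9 kb in sham, and per kb of anchor the ratio was 0.871. Tnfsf4, the OX40 ligand gene, had 1 loop of 18 PETs in MCAO and 1 of 17 PETs in sham, which were partners. Among Toll-like receptors, Tlr12 had 1 loop in MCAO and 0 in sham, Tlr11 had 1 in each without a partner, and Tlr4 is given above.

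Loops at the set were shorter in MCAO. Their span, measured between anchor midpoints, had a median of 224 kb (180 to 326) over the 82 MCAO loops and 384 kb (290 to 463) over the 56 sham loops. For all autosomal gene-end loops the medians were 290 kb in MCAO and 359 kb in sham. The difference in the set was in the same direction as in all loops, and its intervals overlapped. With at least 15 PETs the medians were 331 kb in MCAO and 385 kb in sham. Median PETs per loop were 14 in MCAO and 13.5 in sham, and loops of 30 PETs or more numbered 7 in MCAO and 6 in sham.

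A partner in the other list was present for 19 of 82 MCAO loops, 23.2% (14.6 to 33.8), against 28.2% of all autosomal gene-end loops of MCAO. It was present for 20 of 56 sham loops, 35.7% (23.4 to 49.6), against 34.5% of all. Loops with a partner had a median of 21 PETs in MCAO and 16 in sham, while loops without one had 13 in MCAO and 11.5 in sham. In 22 pairs the loops were nearest partners of each other, and the depth-scaled PETs were higher in MCAO at 10 and lower at 12. The median log2 ratio, MCAO over sham, was -0.12, with quartiles of -0.85 and 0.40, against -0.21 over 3502 autosomal pairs. At Il9, a pair had 35 PETs in MCAO and 10 in sham, but the MCAO anchors were wider (73.0 kb in MCAO and 12.9 kb in sham), and per kb of anchor the ratio was 0.534. In the pairs with more PETs in sham at Cxcl1, Cxcl12 and Il7r, the anchors were wider in sham, and the density ratios were 0.818, 1.28 and 1.64. At Il9, Cxcl12 and Il7r the order of MCAO and sham thus differed between PETs and PETs per kb of anchor. Other pairs also changed order. At Tnfsf11 the depth-scaled ratio was 1.29 and the density ratio 0.871, and at Il21r they were 1.33 and 0.746.

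**Figure D4:**
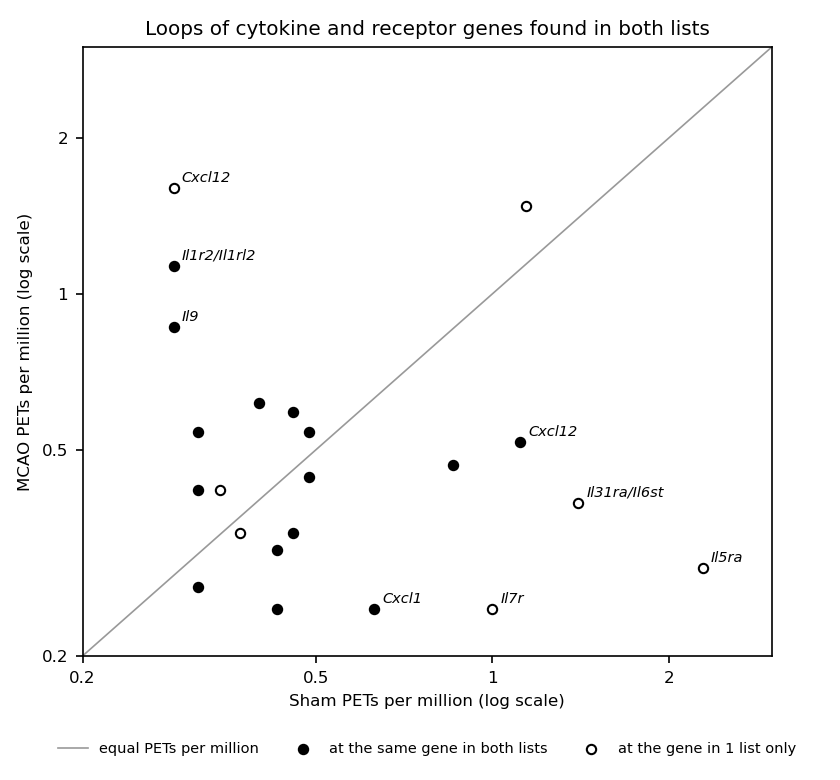
PETs per 1000000 PETs of the library in MCAO (vertical axis, log scale) against sham (horizontal axis, log scale) for the 22 loops at the set found in both lists as nearest partners (1 library per group). Filled points lie at the same gene in both lists, open points at the gene in a single list, and gene names mark differences of at least 2-fold. Points fall on both sides of the line of equal values, 10 above and 12 below.

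The far anchors of these loops often lay at other genes. A far anchor within 2.5 kb of a protein-coding gene end was present in 47 of 82 MCAO loops (57.3%, 45.9 to 68.2) and 29 of 56 sham loops (51.8%, 38.0 to 65.3). Of all autosomal anchors at a gene end, the far anchor had one too for 51.0% in MCAO and 51.8% in sham, so both shares of the set held the value of all genes within their intervals. Several partners occurred in both libraries, such as Nim1k and Zfp131 with the mucosal chemokine gene Ccl28, Ikbke, a kinase gene of innate signalling, with Il24, Nsmce1 with Il21r, Enox1 with Tnfsf11, and Sult1a1, Slx1b, Bola2 and Coro1a with Il27. Loops joining genes of the set to each other were 2 in MCAO (Ccl2 and Ccl7 with Ccl1, Il1r2 with Il1rl2) and 1 in sham.

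Genes that carry the signals of these receptors are given by list. JAK, STAT and SOCS genes act below cytokine receptors and were listed together with the phosphatase genes Ptpn6 and Ptpn11. This list had 22 pairs in MCAO and 15 in sham, with more in MCAO at 10 of 21 genes and fewer at 2. The kinase gene Jak3 had 2 loops in MCAO and 0 in sham, while the kinase gene Jak2 had 1 in MCAO and 5 in sham. Jak3 was 1 of 2 genes in this list with at least 2 more loops in MCAO, against 10.2% of all autosomal genes. Jak2 was the only 1 with at least 2 fewer, against 5.45% of all. Adaptors and kinases of Toll-like and interleukin-1 receptors had 22 pairs in MCAO and 15 in sham, with more in MCAO at 8 of 25 genes and fewer at 4. In this list the adaptor gene Myd88 had 3 loops in MCAO and 0 in sham, Ikbke had 6 in MCAO and 3 in sham, and Tollip had 0 in MCAO and 2 in sham. NF-kB and interferon regulatory factor genes had 10 pairs in MCAO and 11 in sham, with more in MCAO at 3 of 21 genes and fewer at 5, and Irf3 had 2 in MCAO and 0 in sham.

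TNF receptor genes had 15 pairs in MCAO and 9 in sham, with more in MCAO at 6 of 23 genes and fewer at 3. Tnfrsf21, a death receptor gene, had 4 loops in MCAO and 1 in sham, and the co-stimulatory receptor gene Cd40 had 3 in MCAO and 1 in sham. Other cytokine and chemokine genes, including their receptors, had 29 pairs in MCAO and 19 in sham, with more in MCAO at 13 of 35 genes and fewer at 6. Osmr, the oncostatin M receptor gene, had 3 loops in MCAO and 0 in sham, and the neurotrophic cytokine gene Cntf had 0 in MCAO and 2 in sham. Osmr was 1 of 3 genes in this list with at least 2 more loops in MCAO, against 10.2% of all autosomal genes. Cntf was the only 1 with at least 2 fewer, against 5.45% of all. Inflammasome and other sensor genes had 14 pairs in MCAO and 17 in sham, with more in MCAO at 2 of 22 genes and fewer at 4, and the kinase gene Ripk2 had 1 loop in MCAO and 3 in sham. Of 5 TNF ligand genes outside the symbol rule, 1 had a loop, in MCAO. These counts stand beside 29.7% of all autosomal genes with more loops in MCAO and 21.3% with fewer, shares that were 19.1% and 27.4% with the MCAO minimum at 12 PETs. Over all autosomal genes the ratio of pairs, MCAO over sham, was 1.22, and 0.831 at that minimum. The lists were not counted at that minimum.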

How the data were processed

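Hi-C loop lists of 1 MCAO and 1 sham library were used, with groups taken from the sample titles. HiC-Pro and Bowtie2 with mm10 are named, per the submitters' processing notes, without versions. The loop caller is not given in the sources used here, nor is any pooling of the 3 cortices. Counts of PETs per loop and reads per anchor were deposited without scaling. The deposited signal, density, is PETs per kb of both anchors per 1000000 PETs, and solving it returned a single library total for every loop of a list, used here as the depth. The deposited ratios (enrichment) were not used in any result. The deposited p-values and FDR, at most 0.05, were used only to rank loops for alternatives.

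Gene positions and promoters came from RefSeq on GRCm38.p6, with 21883 protein-coding genes. Anchor positions are printed as the files give them. The genes and lists were chosen with earlier results of these data known. Genes named have at least 4 loops in all, a difference of at least 2, a loop in both lists or a loop of at least 30 PETs, besides Il1b, Il6, Tnf, Ccl2, Cxcl1, Cxcl10, Tlr2 and Tlr4. Some others are named as cluster neighbours or group members, chosen after their values were seen. Some items are not reported here by name, in the text or in the plot of loops by gene. Shares have Clopper-Pearson intervals, sums Poisson intervals and ratios binomial intervals, all exact, and medians have order-statistic intervals. Intervals of single-gene differences combine both Poisson intervals. Gene assignment and matching were tested on 2000 simulated loops, where 100% of near ends, 0% of far ends and 99.9% of kept partners were found. Python 3.11.15, pandas 2.3.3 and scipy 1.17.1 were used. Alternatives covered the window, the part of the gene, the PET minimum, depth, the better part of each list by p-value, equal list length, span, the unit counted and the matching rule. Leaving out Il17b or the near-identical genes was added after seeing the data.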

Additional observations from a re-analysis of the deposited data

How the results depend on the processing

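No paired analysis was possible because each group has 1 library. Of 77 alternative values of the summary results, 67 stayed inside the interval of the reported value (for numbers of genes, within 1.5 times) and 10 did not. A turn of direction was looked for only in the MCAO over sham ratio, which stayed above 1 in each alternative. The share of genes without a loop was 41.1% with a window of 10 kb, 70.9% with at least 15 PETs and 66.2% among the loops of lower p-value in each list, against 28.6%, 60.5% and 54.9% of all autosomal genes. In those settings fewer loops, or a wider window, were counted by construction. With at least 15 PETs, 25 genes had more loops in MCAO and 13 had fewer, and the loops of lower p-value left 25 with more. The MCAO over sham ratio was 1.03 with the MCAO minimum raised for depth and otherwise between 1.27 and 1.58. It was above the ratio of all genes in each of the 9 settings where that was computed (not for distinct loops or with genes left out). These settings reuse the same loop lists and so are not separate evidence. The interval of the reported ratio (1.07 to 2.10) held the all-gene ratio of 1.22. The median span in MCAO was 331 kb with at least 15 PETs, and among the loops of lower p-value it was 147 kb in MCAO and 240 kb in sham. The cause of the span differences was not tested. Of 164 single-gene values 2 reversed, both with at least 15 PETs: the difference, MCAO minus sham, became 1 at Il1rl2 and -1 at Il27. Among the 64 values at genes with a difference of at least 2, 59 kept the sign, 4 were 0 and 1 turned. Of the loops at the set, 31.7% in MCAO and 41.1% in sham had 10 or 11 PETs, at or just above the minimum.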

Other observations

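Genes on the X chromosome whose symbols begin in the same way were left out by the rule. Of these 7 genes, Tlr8, a receptor gene for single-stranded RNA, had 1 loop in MCAO and 2 in sham, and the other genes (Tlr7, Tlr13, Cxcr3, Il2rg, Il13ra1 and Il13ra2) had 0 loops in both lists.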
